A study of Mus musculus with 48 samples.

Results

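The 10 genes described here encode the troponin subunits and the striated muscle actins of the mouse. They are the troponin I genes Tnni1, Tnni2 and Tnni3, the troponin T genes Tnnt1, Tnnt2 and Tnnt3, the troponin C genes Tnnc1 and Tnnc2, and the actin genes Actc1 and Acta1. They were chosen by symbol, through the Ensembl identifiers of the GENCODE M21 annotation, and all 10 of the 22055 genes listed were present in all 4 deposited tables. The tables hold TPM, a level scaled for gene length and library size, from RNA sequencing of poly(A) RNA and from ribosome profiling (Ribo-seq), which sequences the fragments that ribosomes protect. Brain, retina, heart, kidney, liver and lung were sampled from wild-type C57BL/6 mice as embryos at E15.5 and as adults at P42. Each tissue, stage and assay had 2 biological replicates, which makes 48 libraries. The labels do not say whether a replicate was 1 animal or a pool. Each of the 4 tables holds 1 stage and 1 assay, so stage and table cannot be told apart.

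Troponin sits on the actin thin filament of striated muscle and makes contraction depend on calcium. Troponin C binds calcium, troponin I inhibits the interaction of actin with myosin, and troponin T anchors the complex to tropomyosin. Each subunit has isoforms named for the fibre they are known from: Tnni1, Tnnt1 and Tnnc1 for slow skeletal muscle, Tnni2, Tnnt3 and Tnnc2 for fast skeletal muscle, and Tnni3 and Tnnt2 for cardiac muscle. Tnnc1 serves both slow and cardiac muscle. Actc1 encodes cardiac and Acta1 skeletal alpha-actin, and both are expressed in the embryonic heart. Replacement of slow skeletal by cardiac troponin I is a known step of heart maturation in rodents.

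On GRCm38, with GENCODE M21, 6 of the 8 troponin genes lie in pairs of a troponin I and a troponin T gene on the same strand. Tnni1 (chr1:135779434-135810989, plus strand) and Tnnt2 (chr1:135836354-135852260) are 25364 bases apart, with Lad1 between them. Tnni2 (chr7:142441808-142444410, plus strand) and Tnnt3 (chr7:142498836-142516009) are 54425 bases apart, with Lsp1 between them. Tnni3 (chr7:4518305-4524229, minus strand) and Tnnt1 (chr7:4504570-4516382) are 1922 bases apart, with no protein-coding gene between them. Tnnc1 (chr14:31208312-31211729, plus strand), Tnnc2 (chr2:164777161-164779967, minus strand), Actc1 (chr2:114047282-114053548, minus strand) and Acta1 (chr8:123891769-123894751, minus strand) stand alone. Exons of Tnni3 overlap Dnaaf3 and those of Tnnc2 overlap Ube2c, and the strand setting of the counting is not given in the sources used here.

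The promoters of 8 of the 10 genes were found in the RefSeq table of GRCm38.p6; Tnni2 and Tnnt3 were not matched. Each sequence below is the 250 bases before the RefSeq transcription start (the first of 2 for Tnni1), 5′ to 3′ on the gene's strand, with matches to the searched motifs in capitals. They are shown for the troponin I genes whose balance differed most between stages in heart and for the pair of actin genes.
Tnni1 (chr1:135799171-135799420): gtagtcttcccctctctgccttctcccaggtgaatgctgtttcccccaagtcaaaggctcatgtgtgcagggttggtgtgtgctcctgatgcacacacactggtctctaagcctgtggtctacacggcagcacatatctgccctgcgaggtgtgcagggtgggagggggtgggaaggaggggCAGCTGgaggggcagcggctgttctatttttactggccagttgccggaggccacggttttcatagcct
Tnni3 (chr7:4522529-4522778): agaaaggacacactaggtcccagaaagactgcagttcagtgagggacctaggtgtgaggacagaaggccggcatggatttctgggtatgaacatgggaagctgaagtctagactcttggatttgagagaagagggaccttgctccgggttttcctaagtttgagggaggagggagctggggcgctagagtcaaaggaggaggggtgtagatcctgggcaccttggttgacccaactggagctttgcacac
Actc1 (chr2:114052876-114053125): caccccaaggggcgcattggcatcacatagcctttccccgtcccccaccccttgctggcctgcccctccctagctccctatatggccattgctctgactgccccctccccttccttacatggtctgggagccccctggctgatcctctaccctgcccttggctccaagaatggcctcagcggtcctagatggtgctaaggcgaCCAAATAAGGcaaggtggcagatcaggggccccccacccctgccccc
Acta1 (chr8:123894776-123895025): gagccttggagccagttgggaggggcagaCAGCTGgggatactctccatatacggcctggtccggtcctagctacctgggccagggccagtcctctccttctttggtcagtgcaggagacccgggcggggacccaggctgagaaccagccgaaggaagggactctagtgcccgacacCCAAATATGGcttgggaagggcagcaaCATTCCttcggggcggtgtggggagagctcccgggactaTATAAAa
Both strands were searched for TATAAA (the TATA box), CATTCC (the MCAT site), CAGCTG (an E box), 4 GATA forms (AGATAA, with its G-ending variant AGATAG, and the TGATAA form with its variant TGATAG), the CArG box (the site of serum response factor) and the MEF2 site. Both actin promoters held a CArG box, 47 bases before the start in Actc1 and 73 in Acta1, and no other member did; 1.47% of the 32851 RefSeq promoters of this length hold one. The Acta1 promoter also held TATAAA at 7 bases, CATTCC at 46 and CAGCTG at 221, which stand in 12.4%, 12.6% and 13.0% of promoters. The Tnni1 promoter held CAGCTG at 68 bases, Tnnc1 CATTCC at 58 and Tnnt1 TATAAA at 30. The first of 2 Tnnt2 promoters held CATTCC at 27, a GATA form at 166 and CAGCTG at 157 and 223; the GATA forms stand in 26.5% of promoters. The second, farther downstream, held none of the motifs. Tnni3 and Tnnc2 held none of these motifs, and the MEF2 site, in 2.92% of promoters, was in 0 of the 8. A match is a string of letters, not a shown binding site.

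The coding sequences of Actc1 and Acta1 are 1131 bases each and identical at 976 positions (86.3%), so within the coding sequence reads of the 2 genes can be told apart only at the 155 positions that differ; the untranslated exons were not compared. The 90 bases of the coding sequence with most differences (positions 406 to 495 from the start codon, 20 differences in capitals) show what separates them.
Actc1: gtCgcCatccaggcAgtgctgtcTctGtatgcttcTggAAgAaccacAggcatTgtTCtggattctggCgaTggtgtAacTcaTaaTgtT
Acta1: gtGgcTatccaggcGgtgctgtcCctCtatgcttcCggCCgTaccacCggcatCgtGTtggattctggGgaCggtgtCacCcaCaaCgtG
The longest stretch they share is 29 bases, at positions 964 to 992, about the length of 1 ribosome footprint. Of the 1104 words of 28 bases in each coding sequence, 25 of Actc1 (2.26%) and 88 of Acta1 (7.97%) also occur in transcripts of another gene, those of Acta1 mostly in Actb and in actin pseudogenes. The coding sequences of the 8 troponin genes share 0 such words with another gene. How the authors treated reads that map to several places is not given in the sources used here, so Acta1 values are less certain than the others.

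Libraries and tissue labels were checked before the comparisons. By RNA-seq the listed genes summed to 48.9% to 93.4% of a full TPM total, and by Ribo-seq to 23.1% to 61.1%; read depth is unknown, since TPM keeps none. Every library of a tissue held its defining markers, apart from Rcvrn, a photoreceptor gene, which was at 0 or below 1 TPM in 3 of the 4 E15.5 retina libraries, and 1 of 4 liver markers in 1 P42 liver footprint library. All 14 cardiomyocyte markers reached 1 TPM in each of the 8 heart libraries. A pair of libraries stood apart. E15.5 liver RNA-seq replicate 2 held skeletal muscle transcripts, with 15 of 20 markers at 1 TPM or more and a summed level of 598 TPM, against 1 of 20 and 26.6 TPM in replicate 1 and 26.7 and 28.03 TPM in the liver footprint libraries. The E15.5 lung Ribo-seq replicates differed by a median of 0.024 on the log2 scale over genes of at least 100 TPM, against 0.047 to 0.388 in the 11 other Ribo-seq groups; with no counts this could not be set against sampling noise. Results in lung, liver and heart that rest on these libraries are also given without them, an alternative chosen after seeing the data. Markers of another tissue also stood in other Ribo-seq libraries, which stayed in that alternative. They were cardiomyocyte markers in E15.5 kidney and brain and lung markers in P42 heart, with values given below. In whole tissue, fewer cells of a type and less RNA per cell cannot be told apart.

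Within heart, Tnni1 changed most of the 10 genes between the stages, in both assays. Tnni1, the slow skeletal isoform, stood at 1484 and 1366 TPM by RNA-seq at E15.5 and at 0.123 and 0.137 TPM at P42. Tnni3, the cardiac isoform, stood at 1262 and 1159 TPM at E15.5 and at 3361 and 3132 TPM at P42. The embryonic libraries thus held the 2 isoforms at like levels, and the adult libraries held Tnni1 at a trace, with no overlap between stages for either gene. Tests between stages were made with limma on log2(TPM + 1) over all genes, and calls needed an adjusted p under 0.05 together with a log2 change of 1 or more; this scale understates changes of low genes. Tnni1 RNA fell by 10.30 ± 0.71 (log2, SE; adjusted p = 1.8e-11) and Tnni3 RNA rose by 1.42 ± 0.28 (adjusted p = 7.1e-05).

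Footprints of Tnni1 fell as its RNA did, while no footprint change was called for Tnni3. Tnni1 footprints were 1565 and 1159 TPM at E15.5 and 0.267 and 0.140 TPM at P42, a fall of 10.13 ± 0.48 (log2; adjusted p = 1.8e-11). Tnni3 footprints were 1574 and 914 TPM at E15.5 and 1477 and 1335 TPM at P42. The adult Tnni3 values lay between the embryonic ones, and the change of 0.23 ± 0.63 (log2, SE) was not called (adjusted p = 0.74). This value moved with the scaling of libraries: it was 1.56 with median-of-ratios scaling, which was called (adjusted p = 0.034), and, not called, 1.35 without mitochondrial genes, 1.24 centred on the median gene and 0.95 at an equal sum of listed TPM. Tnni2, the fast skeletal isoform, was a minor transcript at 12.1 and 11.0 TPM in E15.5 heart and 3.17 and 1.65 TPM at P42. Its RNA fell by 1.92 ± 0.61 (log2; adjusted p = 0.0055) and its footprints by 3.01 ± 0.25 (adjusted p = 1.3e-08), from 15.1 and 9.26 TPM to 0.563 and 0.623 TPM. Without P42 heart replicate 2 the Tnni2 RNA difference was −1.59 and was not called.

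**Figure D1:**
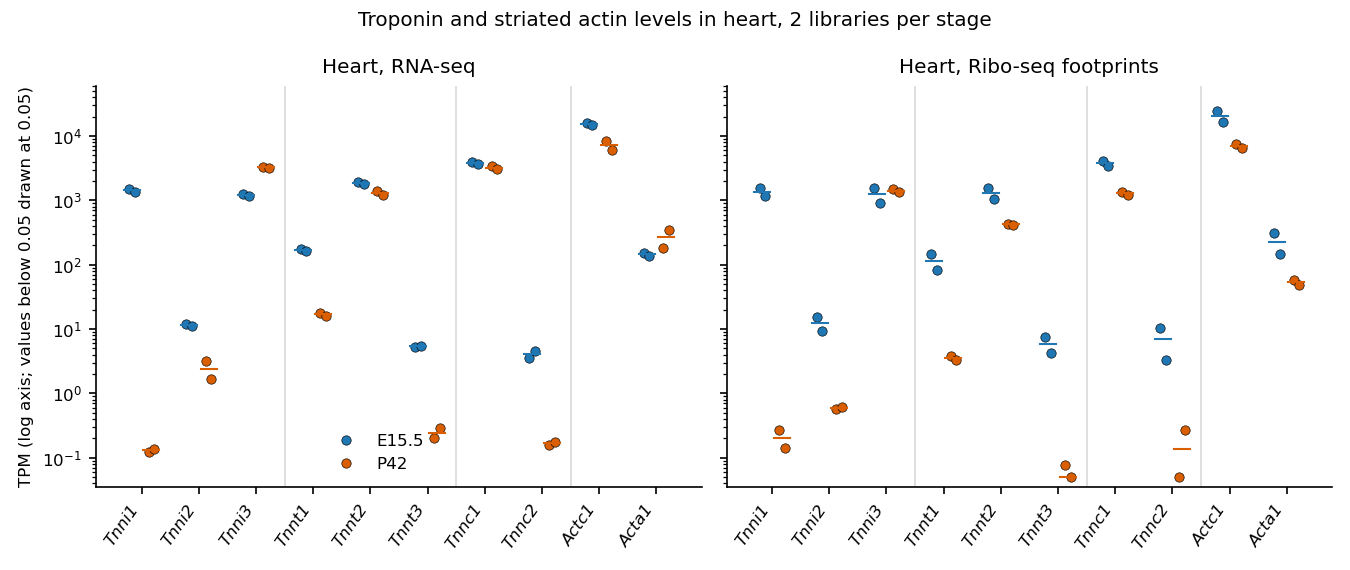
TPM (log axis) of the 10 genes in each heart library by RNA-seq (left) and Ribo-seq (right), with points for libraries, short lines for the mean of 2 and values below 0.05 drawn at 0.05. Tnni1 drops from above 1000 TPM at E15.5 to below 0.3 TPM at P42 in both assays, while Tnnt2, Tnnc1 and Actc1 are at 416 TPM or more in every heart library.

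Among the troponin T genes, Tnnt2, the cardiac isoform, was the main transcript at both stages. It stood at 1908 and 1814 TPM by RNA-seq at E15.5 and at 1392 and 1218 TPM at P42, and the change of −0.51 ± 0.47 (log2, SE) was not called (adjusted p = 0.30). Tnnt2 footprints fell by 1.59 ± 0.51 (log2; adjusted p = 0.0081), from 1544 and 1056 TPM to 432 and 416 TPM. That fall was not called under any other scaling. It was −0.26 with median-of-ratios scaling, −0.47 without mitochondrial genes, −0.87 at an equal sum of listed TPM and −0.57 centred on the median gene. Tnnt1, the slow skeletal isoform, was minor beside Tnnt2 at E15.5, at 178 and 163 TPM by RNA-seq, and stood at 17.7 and 16.1 TPM at P42. Its RNA fell by 3.26 ± 0.60 (log2; adjusted p = 2.4e-05) and its footprints by 4.62 ± 0.28 (adjusted p = 2.4e-10), from 147 and 84.2 TPM to 3.8 and 3.35 TPM. Stages did not overlap for Tnnt1 or Tnnt2 in either assay. Tnnt3, the fast skeletal isoform, was at 5.30 and 5.52 TPM by RNA-seq at E15.5 and at 0.200 and 0.290 TPM at P42, a fall of 2.37 ± 0.73 (log2; adjusted p = 0.0043). Tnnt3 footprints fell by 2.69 ± 0.18 (log2; adjusted p = 8.8e-10).

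Tnnc1, which encodes the calcium sensor of cardiac and slow muscle, was the most abundant troponin transcript in E15.5 heart. Its RNA stood at 3900 and 3670 TPM at E15.5 and at 3448 and 3021 TPM at P42, with a difference of −0.23 ± 0.37 (log2, SE) that was not called (adjusted p = 0.56). Its footprints stood at 4120 and 3410 TPM at E15.5 and at 1341 and 1221 TPM at P42, a fall of 1.55 ± 0.54 (log2; adjusted p = 0.014). The footprint fall was not called under any other scaling. It was −0.22 with median-of-ratios scaling, −0.43 without mitochondrial genes, −0.83 at an equal sum of listed TPM and −0.54 centred on the median gene. The adult values lay below the embryonic ones in both assays, by little in RNA and by more in footprints; the difference between the assays is tested with the ratio. Tnnc2, the fast skeletal calcium sensor, stood at 3.52 and 4.6 TPM by RNA-seq at E15.5 and 0.158 and 0.176 TPM at P42. Tnnc2 RNA fell by 2.11 ± 0.56 (log2; adjusted p = 0.0013) and its footprints by 2.64 ± 0.31 (adjusted p = 5.7e-07).

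Cardiac actin outweighed skeletal actin in every heart library. Actc1 stood at 15817 and 14899 TPM by RNA-seq at E15.5 and at 8303 and 6036 TPM at P42, and its footprints at 24517 and 16707 TPM against 7466 and 6597 TPM. The stages did not overlap in either assay, but neither difference was called, at −1.12 ± 1.19 (log2, SE; adjusted p = 0.37) by RNA-seq and −1.53 ± 0.83 (adjusted p = 0.094) by footprint. The spread in these tests is shared over tissues and is wide for the actin genes, whose RNA in E15.5 liver was 0.933 and 233 TPM (Actc1) and 1.72 and 296 TPM (Acta1) in the 2 libraries. Acta1 RNA was 153 and 136 TPM in heart at E15.5 and 182 and 349 TPM at P42, a difference of 0.80 ± 1.06 (log2, SE; adjusted p = 0.47). Acta1 footprints went the other way, from 306 and 149 TPM to 57.7 and 48.6 TPM, a fall of 1.99 ± 0.27 (log2; adjusted p = 3.3e-06). At an equal sum of listed TPM this change was −1.28 and was called. It was not called with median-of-ratios scaling (−0.67), without mitochondrial genes (−0.88) or centred on the median gene (−0.98). Without the 2 libraries that stood apart, the SE of the Acta1 RNA difference was 0.25 (adjusted p = 0.0046), below the size threshold of 1, and that of Actc1 was 0.55 (adjusted p = 0.059).

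By RNA-seq, 1 of the 10 genes was called higher in P42 heart and 5 lower. The background was uneven: of the 12780 genes tested in heart, 2.73% were called higher and 74.6% lower, and the median gene changed by −1.61 (log2), so the count of falls lies below the background. By footprint, 0 were higher and 8 lower, against 10.2% and 50.6% of 12521 genes and a median of −1.01. The median over the 10 genes was −1.52 by RNA-seq and −2.32 by footprint. Mitochondrially encoded genes took up to 55.5% of the TPM total of an RNA-seq library, and the choice of scale matters. In heart their part differed by stage and assay: 14.5% and 14.98% of RNA-seq at E15.5 and 54.2% and 55.5% at P42. By Ribo-seq it was 0.572% and 1.13% at E15.5 and 7.19% and 6.83% at P42. The heart stage changes and ratios are compared across this shift. With these genes left out at an equal sum, the median gene changed by −0.897 in heart RNA and −0.127 in footprints. With median-of-ratios scaling the median gene changed by 0.05 in heart RNA and 2576 genes rose and 1839 fell, in place of 349 and 9529, and for footprints 2442 rose and 1372 fell in place of 1275 and 6334. On that scale the RNA of Tnni3 (3.44), Tnnc1 (1.79), Tnnt2 (1.5) and Acta1 (2.82) was called higher and that of Tnni1 (−9.72) and Tnnc2 (−1.5) lower. Calls that held under all scalings tried were the RNA changes of Tnni1 and Tnni3 and the footprint falls of Tnni1, Tnni2, Tnnt1, Tnnt3 and Tnnc2. In P42 heart the footprints of Tnni1, Tnni2, Tnnt3 and Tnnc2 averaged below 1 TPM. These genes met the filter, a mean of 1 TPM over both stages, through E15.5 alone and could then only fall. The same held for the RNA of Tnni1, Tnnt3 and Tnnc2, so the direction of these falls is a description. Without E15.5 heart Ribo-seq replicate 1, the footprint falls of Tnnt2 (−1.31) and Tnnc1 (−1.41) were not called.

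Shares within a subunit family do not depend on how a library is scaled. Tnni1 made up 53.8% and 53.9% of troponin I TPM by RNA-seq in the E15.5 heart libraries and 0.0037% and 0.0044% in the P42 libraries. By footprint it made up 49.6% and 55.7% at E15.5 and 0.018% and 0.010% at P42. Tnni3 rose over the same libraries from 45.8% and 45.7% of RNA to 99.9% in both, and from 49.9% and 43.9% of footprints to 99.9% in both. Tnni2 never exceeded 0.480%. Tnnt1 made up 8.51% and 8.23% of troponin T RNA at E15.5 and 1.26% and 1.30% at P42, and 8.63% and 7.36% of footprints at E15.5 against 0.870% and 0.801% at P42. The remainder was nearly all Tnnt2, from 90.9% to 92.3% at E15.5 and from 98.7% to 99.2% at P42 over both assays. Tnnc2 stayed at or below 0.253% of troponin C.

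The share of Acta1 in the summed TPM of Actc1 and Acta1 moved in opposite directions in the 2 assays. It was 0.955% and 0.905% of RNA at E15.5 and 2.15% and 5.47% at P42, and 1.23% and 0.883% of footprints at E15.5 and 0.767% and 0.731% at P42. The adult RNA libraries lay above and the adult footprint libraries below the embryonic ones, and the 2 adult RNA libraries differed by more than a factor of 2. For the shares of all isoforms the stages did not overlap in either assay. The exact two-sided permutation test of 2 against 2 libraries gave p = 0.333 for each, the smallest it can give, so these shares stand as descriptions.

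**Figure D2:**
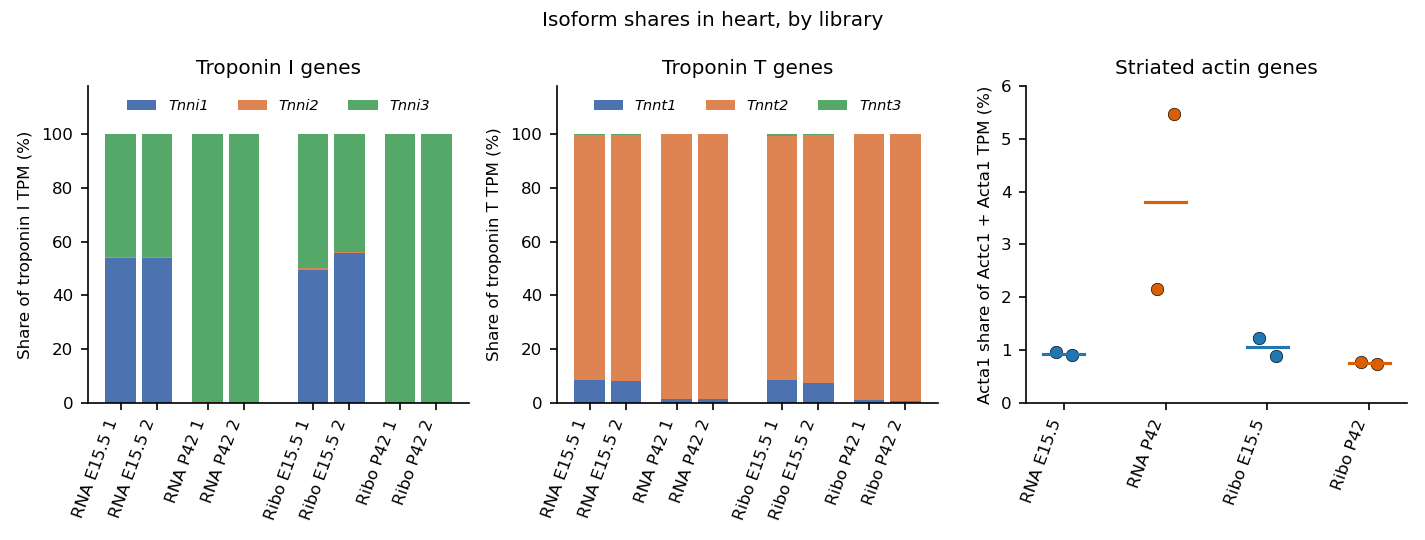
Percent of troponin I TPM, troponin T TPM and Actc1 plus Acta1 TPM by isoform in each heart library, as stacked bars for troponins and as points with a line at the mean of 2 for Acta1. Tnni1 fills 49.6% to 55.7% of the troponin I bars at E15.5 and no visible part at P42, and the Acta1 points rise with stage in RNA-seq and fall in Ribo-seq.

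Summed over isoforms, the proportions of the subunits in heart also differed between stages. Troponin I RNA was 1.32 and 1.28 times troponin T RNA at E15.5 and 2.39 and 2.54 times at P42. By footprint the ratio was 1.86 and 1.82 at E15.5 and 3.39 and 3.19 at P42. Both assays thus placed adult heart above embryonic heart for troponin I per troponin T, with no overlap. Troponin C per troponin T was 1.87 and 1.85 by RNA at E15.5 and 2.45 at P42 in both libraries, while its footprint ratios were 2.43 and 2.98 at E15.5 and 3.07 and 2.92 at P42, which overlap. The sum of Actc1 and Acta1 was 7.64 and 7.58 times troponin T by RNA at E15.5 and 6.02 and 5.17 times at P42, and 14.6 and 14.7 times by footprint at E15.5 and 17.2 and 15.9 times at P42. All 10 genes together took 3.18% and 3.11% of listed RNA TPM in E15.5 heart and 1.90% and 1.61% at P42, and 6.84% and 5.75% of listed footprint TPM against 3.98% and 3.51%.

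Footprint TPM divided by RNA TPM describes how many ribosomes a transcript carried relative to others in the same libraries. In E15.5 heart, Acta1 stood at 1.57, Actc1 at 1.34, Tnni3 at 1.03, Tnnc1 at 0.995, Tnni1 at 0.956, Tnnt2 at 0.699 and Tnnt1 at 0.677, where the median gene stood at 0.509. Acta1 was at the 98.9th, Actc1 at the 97.5th and Tnni3 at the 90.8th percentile of genes. The fast skeletal genes Tnnt3 and Tnni2, at 5.41 and 11.6 TPM of RNA, stood at 1.09 and 1.06, the 92.6th and 91.7th percentile. In P42 heart, Actc1 stood at 0.981, Tnni3 at 0.433, Tnnc1 at 0.396, Tnnt2 at 0.325, Tnnt1 at 0.211 and Acta1 at 0.200, where the median gene stood at 0.554. Actc1 kept a high place, at the 78.0th percentile, whereas Tnni3 was at the 36.8th and Acta1 at the 11.6th. Every one of the 6 ratios was lower in the adult, with a median difference of −1.26 (log2) against 0.20 over all 5583 genes tested.

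The test of the ratio, as the interaction of assay and stage over all tissues, called 0 of these 6, against a background of 10.7% higher and 4.94% lower. The differences were −2.79 ± 1.27 for Acta1 (log2, SE; unadjusted p = 0.035, adjusted p = 0.11), −1.36 ± 0.74 for Tnnt1 (adjusted p = 0.19), −1.32 ± 0.70 for Tnnc1 (adjusted p = 0.17), −1.20 ± 0.73 for Tnni3 (adjusted p = 0.24), −1.07 ± 0.75 for Tnnt2 (adjusted p = 0.31) and −0.41 ± 1.64 for Actc1 (adjusted p = 0.89). Of the 6, 1 (Acta1) had an unadjusted p below 0.05. With the heart libraries fitted alone, the same differences had smaller errors and 5 were called lower, with adjusted p from 0.0030 for Acta1 to 0.021 for Tnni3, and Actc1 was not (adjusted p = 0.37). Median-of-ratios scaling also called 5, but moved the median gene to −0.55 and the table to 69 genes higher and 1432 lower; giving every library the same sum of listed TPM led to 2812 higher and 53 lower. Without the 2 libraries that stood apart, Acta1 alone was called (−2.79 ± 0.39, log2, SE; adjusted p = 2.1e-05). In P42 heart Ribo-seq, lung markers, mainly of surfactant genes, summed to 104 and 339 TPM; their part in the heart ratios was not tested.

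**Figure D3:**
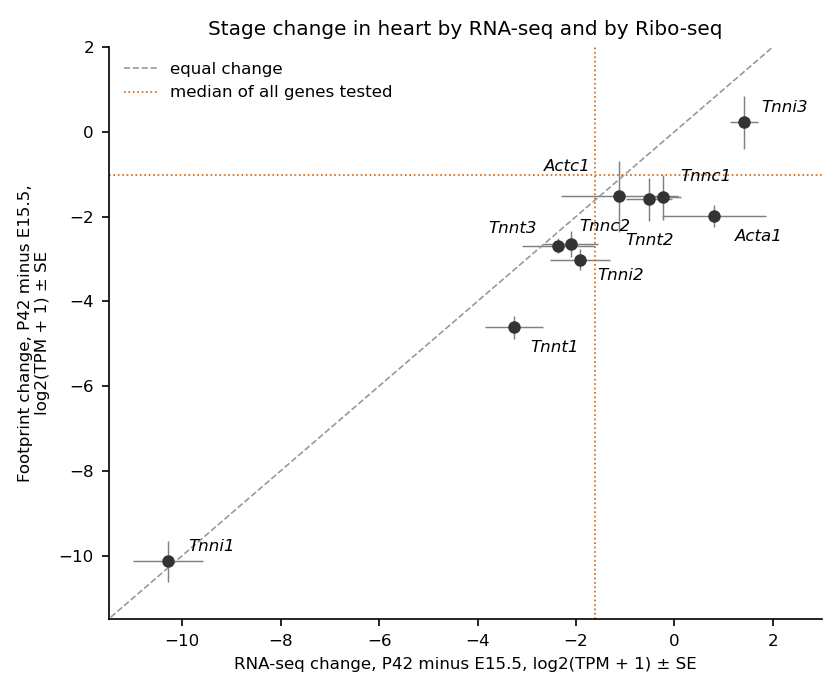
Stage change in heart (P42 minus E15.5, log2 of TPM + 1, with SE) by RNA-seq (x axis) and by Ribo-seq (y axis) for the 10 genes, with a dashed line of equal change and dotted lines at the median of all genes tested. Apart from Tnni1, each gene lies below the line of equal change, Acta1 farthest at 0.80 by RNA-seq and −1.99 by Ribo-seq.

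Across tissues at E15.5, 6 of the 10 genes were called higher in heart than in each of the other 5 tissues by RNA-seq: Tnni1, Tnni3, Tnnt1, Tnnt2, Tnnc1 and Actc1. The same 6 were called by footprint. Of all genes, 2.9% were so called by RNA-seq and 3.36% by footprint. At P42 it was 5 genes in both assays, Tnni3, Tnnt2, Tnnc1, Actc1 and Acta1, against 1.42% and 5.03% of all genes. The distance to the next tissue was wide: for Tnni3 RNA at P42 it was 6.57 (log2, over lung), for Tnnc1 6.42 (over brain), for Actc1 6.30 (over lung), for Tnnt2 6.28 (over lung) and for Acta1 3.40 (over brain). Tnnt1 was no longer among them. At P42 its RNA was 36.7 TPM in retina, 21.8 TPM in brain and 16.9 TPM in heart, neighbours whose differences were not called, followed by lung at 2.37 TPM, which was called lower than heart. Tnni1 RNA at P42 was highest in brain, at 6.49 TPM, and below 0.5 TPM in each other tissue, heart included at 0.130 TPM.

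None of the fast skeletal genes Tnni2, Tnnt3 and Tnnc2 was called higher in heart than in each other tissue, at either stage in either assay. At E15.5, mean RNA of Tnnc2 was 20.2 TPM in kidney and 4.06 TPM in heart, that of Tnnt3 17.3 TPM in kidney and 5.41 TPM in heart, and that of Tnni2 7.53 TPM in kidney and 11.6 TPM in heart, where the difference was not called. Tnni2 footprints at E15.5 were highest in heart, at 12.2 TPM against 9.81 TPM in kidney, which was not called either. Acta1 RNA at E15.5 averaged 149 TPM in liver, 144 TPM in heart and 36.6 TPM in kidney, neighbours whose differences were not called; the liver mean comes from 1.72 and 296 TPM, the higher value being that of the library with skeletal muscle markers. By footprint, Acta1 stood at 227 TPM in heart and 119 TPM in kidney, a difference of 0.85 ± 0.27 (log2, SE; adjusted p = 0.016) that was under the size threshold of 1. Lung followed at 25.2 TPM, which was called lower than kidney.

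**Figure D4:**
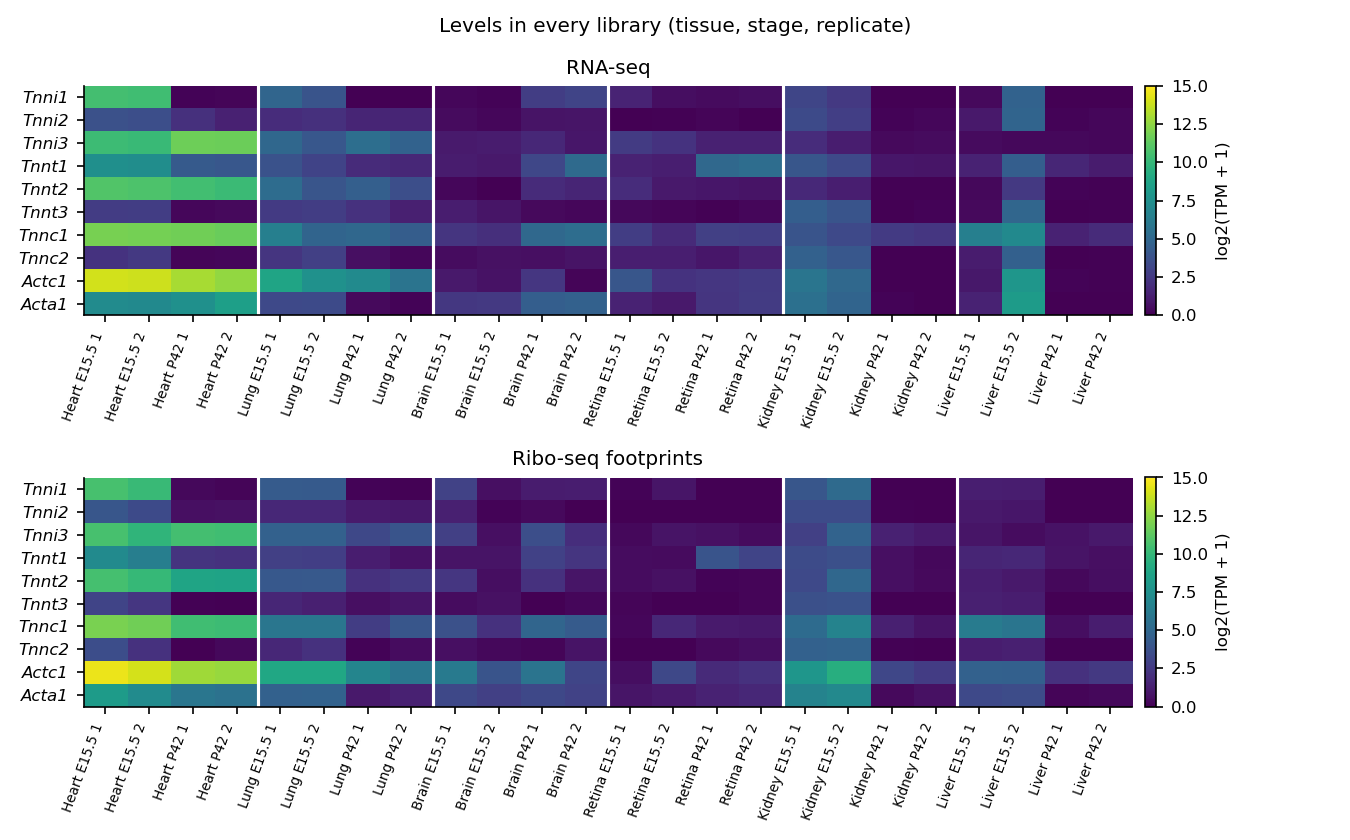
log2(TPM + 1) of the 10 genes (rows) in each of the 24 RNA-seq and 24 Ribo-seq libraries (columns, by tissue, stage and replicate), with colour from 0 (dark) to 15 (yellow). Heart columns are brightest for Tnni3, Tnnt2, Tnnc1 and Actc1, and E15.5 liver replicate 2 stands out from replicate 1 by RNA-seq.

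In lung, the cardiac set was present at a low level at both stages. Tnni3 RNA was 31.4 and 15.6 TPM at E15.5 and 42.5 and 25.7 TPM at P42, and Tnnt2 RNA 39.2 and 14.5 TPM and then 22.2 and 11.1 TPM. Actc1 RNA was 440 and 190 TPM at E15.5 and 146 and 53.9 TPM at P42. Replicate 1 was above replicate 2 for each of these at both stages, and the stages overlapped for Tnni3 and Tnnt2 but not for Actc1. Expressed as a share of the heart mean of the same stage, Tnni3, Tnnt2, Tnnc1 and Actc1, with Tnni1 at E15.5, were at 1.99% to 2.86% in lung replicate 1 and 0.735% to 1.29% in replicate 2 at E15.5. At P42 the 4 genes without Tnni1 were at 0.955% to 2.04% and 0.623% to 0.851%. The 14 cardiomyocyte markers summed to 947 and 304 TPM in E15.5 lung RNA and to 255 and 137 TPM at P42, 3.79%, 1.22%, 1.46% and 0.790% of heart; they moved with these values and their part was not tested. In P42 lung Myl7, the atrial light chain, was at 173 and 97.8 TPM, whereas Myl2, the ventricular one, was at 0 and 0.037 TPM.

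Between stages in lung, 4 of 10 genes were called lower by RNA-seq and 0 higher, where 53.5% of all genes fell and 10.1% rose. Tnni1 RNA fell by 4.36 ± 0.71 (log2, SE), from 28.4 and 13.98 TPM to 0.031 and 0.010 TPM. The others were Acta1 (−3.10), Tnnc2 (−2.12) and Tnnt1 (−1.65). By footprint 7 of 10 were lower, against a background of 22.8% lower and 18.6% higher: Tnni1 (−4.17), Acta1 (−3.50), Actc1 (−2.59), Tnnc1 (−2.54), Tnnt2 (−1.86), Tnnt1 (−1.84) and Tnnc2 (−1.57). The ratio could be tested for 4 genes and none was called: Tnni3 −1.64 (adjusted p = 0.053), Tnnc1 −1.57 (adjusted p = 0.056), Tnnt2 −1.29 (adjusted p = 0.14) and Actc1 −0.90 (adjusted p = 0.65), where 39.4% of genes were higher and 1.28% lower. Unadjusted p was below 0.05 for 2 of these, Tnni3 and Tnnc1. Without the 2 libraries that stood apart, 7 of 10 were still lower by footprint and 0 of 4 ratios were called. The E15.5 lung mRNA libraries mattered to the RNA counts: without replicate 1 there were 3 lower and 1 higher, and without replicate 2 there were 6 lower.

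The difference between the stage changes of heart and lung was tested directly, in the 17171 genes by RNA-seq and 16715 by footprint. It was called for 2 members by RNA-seq, Tnni1 and Acta1, where 31.9% of all genes were called in either direction. By footprint it was called for 6, Tnni1, Tnni2, Tnnt1, Tnnt3, Tnnc2 and Acta1, where 39.7% of all genes were. Tnni1 thus fell in both tissues, and by 5.94 ± 1.00 more in heart on the log2(TPM + 1) scale by RNA-seq. The lung value started at 21.2 TPM and the heart value at 1425 TPM. As lung ended at 0.020 TPM, it had no room on this scale for a fall as large as that of heart. For Tnni3, the cardiac troponin I gene, the difference of 0.87 ± 0.40 by RNA-seq was not called (adjusted p = 0.083). Without the 2 libraries that stood apart, 5 members were called by RNA-seq, and by footprint the same 6, with Tnni1 at −5.94, Tnnt1 at −2.75, Tnni2 at −2.38, Tnnt3 at −1.79, Tnnc2 at −1.3 and Acta1 at 1.48.

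In kidney, all 9 members tested by RNA-seq were called lower at P42 and all 10 by footprint. A gene entered these tests with a mean of 1 TPM over both stages, which its E15.5 level alone could reach. Members near 0 TPM at P42 could then only fall, so these counts are descriptions. The background was 43.9% lower and 13.1% higher by RNA-seq, and 40.2% and 12.2% by footprint. By RNA-seq the largest falls were Actc1 (−5.46), from 56.6 and 32.8 TPM to 0 in both libraries, Acta1 (−5.10), from 46.1 and 27.1 TPM to 0.093 and 0.032 TPM, Tnnc2 (−4.37) and Tnnt3 (−4.08). At E15.5 the 2 assays gave different levels of the cardiac genes. Tnni3 was 2.77 and 1.34 TPM by RNA-seq and 6.03 and 26.1 TPM by footprint, and Actc1 was 56.6 and 32.8 TPM against 234 and 680 TPM. The footprint-to-RNA ratio of Actc1 was 10.2, the 99.8th percentile of genes, that of Tnnc1 6.17, of Tnni1 4.09 and of Acta1 3.24. Over the 5 heart genes the footprint level was 0.485% to 1.14% of heart in replicate 1 and 2.10% to 3.30% in replicate 2, against 0.121% to 0.539% and 0.077% to 0.321% by RNA-seq. The cardiomyocyte markers moved the same way, with sums of 233 and 824 TPM in the footprint libraries (0.808% and 2.86% of heart) and 15.6 and 10.0 TPM in the RNA-seq libraries (0.062% and 0.040%). Their part in the kidney footprint values was not tested. Between stages, 12 of 12 cardiomyocyte markers tested fell by footprint (median −3.65) and 1 of 4 by RNA-seq. Skeletal muscle markers had similar sums in both assays at E15.5, at 108 and 69.4 TPM by RNA-seq and 121 and 150 TPM by footprint. Of these, 9 of 9 tested fell by RNA-seq (median −2.5) and 10 of 10 by footprint (median −2.42). Genes of both lists entered by the same filter, and their part in the kidney falls was not tested. Without E15.5 kidney RNA-seq replicate 1, 7 members were called lower by RNA-seq.

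**Figure D5:**
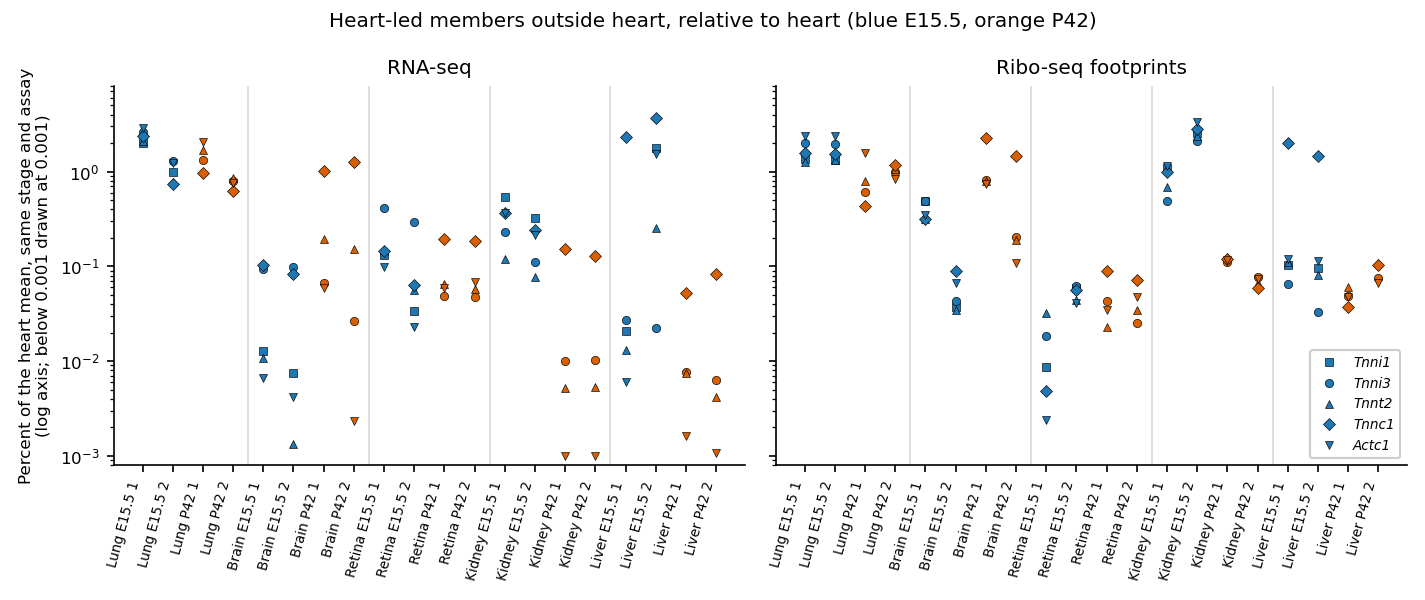
Level of Tnni3, Tnnt2, Tnnc1 and Actc1, with Tnni1 at E15.5 (markers by gene), in each library outside heart as a percent of the heart mean of the same stage and assay (log axis, values below 0.001 drawn at 0.001). In lung the genes of a library sit together, between 0.432% and 2.86% over both stages and assays, in E15.5 kidney they are higher by Ribo-seq than by RNA-seq, and Tnnc1 stands above the others in E15.5 liver and P42 brain.

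Liver results by RNA-seq turned on 1 library. As in kidney, a member could enter the stage tests on its E15.5 level alone, and members near 0 TPM at P42 could then only fall. All 9 members tested were called lower at P42, against 47% of all genes lower and 13.4% higher, but without E15.5 replicate 2, the library with skeletal muscle markers, 3 were: Tnnc1 (−4.81), Acta1 (−1.44) and Tnnc2 (−1.12). Tnnc1 did not depend on it. Its RNA was 87.1 and 140 TPM at E15.5 and 1.68 and 2.66 TPM at P42, and its footprints 75.9 and 55.4 TPM and then 0.482 and 1.32 TPM. The other cardiac genes were low in E15.5 liver footprints relative to heart: the lowest of the 5 heart genes were at 0.064% and 0.033% of heart and Tnnc1 at 2.02% and 1.47%. The cardiomyocyte markers summed to 9.79 TPM in E15.5 liver RNA-seq replicate 1, 0.039% of heart, with Nkx2-5 and Nppb at 0, while Tnnc1 there was at 2.30% of heart. By footprint, 3 of 4 members tested fell, Tnnc1 (−5.15), Acta1 (−3.15) and Actc1 (−2.31), against 44% of genes lower and 10.2% higher.

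In brain and retina, some members were higher in the adult. A member could enter these stage tests on its P42 level alone, and one near 0 TPM at E15.5 could then only rise. Among the rises, Tnni1 and Tnnt2 RNA in brain and Tnnt1 footprints in both tissues entered in this way, so these counts are descriptions. By RNA-seq in brain, 4 of 7 tested were called higher at P42, against 11.7% of all genes higher and 36% lower. These were Tnnt1 (3.10 ± 0.60, log2, SE), from 1.25 and 1.04 TPM to 8.31 and 35.2 TPM, Tnnc1 (3.07 ± 0.37), from 3.93 and 3.11 TPM to 32.9 and 40.8 TPM, Tnni1 (2.70 ± 0.71), from 0.184 and 0.106 TPM to 5.70 and 7.29 TPM, and Tnnt2 (1.55 ± 0.47). The stages did not overlap for Tnnt1, Tnnc1 or Tnni1, and the adult libraries were high in each. Cardiomyocyte markers summed to 18.1 and 13.8 TPM in E15.5 and 55.1 and 52.6 TPM in P42 brain RNA, with Myl7 at 0 in both adult libraries. Of 6 such markers tested by RNA-seq, 3 were called higher and 0 lower, with a median of 1.22 against −0.60 over all genes. The part of these markers in the rises was not tested. By footprint 2 were higher, Tnnt1 (1.82 ± 0.28) and Tnnc1 (1.68 ± 0.54), against 20.2% higher and 17.7% lower. Cardiomyocyte markers in P42 brain footprints summed to 132 and 56.6 TPM, 1.16% and 0.499% of heart. Of 12 such markers tested by footprint, 4 were called higher and 2 lower, with a median of 0.47 against −0.008 over all genes. Their part in the footprint rises was not tested. Brain Tnni1 footprints were 6.65 and 0.502 TPM at E15.5 and 1.23 and 1.27 TPM at P42, which overlap, and the change of −0.59 ± 0.48 (log2, SE) was not called (adjusted p = 0.30). The E15.5 brain footprint replicate 1, with the high Tnni1 value, held cardiomyocyte markers at 99.2 TPM against 13.5 TPM in replicate 2, and its Actc1 was 71.1 against 13.8 TPM; the part of these markers was not tested. Without E15.5 brain footprint replicate 2, Tnnc1 was not called (0.89) and 1 gene was higher and 1 lower. Without P42 replicate 1, 1 was higher, and without E15.5 replicate 1 or P42 replicate 2, 3 were. Tnnt1 was the gene called higher in each of these.

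In retina, Tnnt1 was called higher at P42 in both assays. Its RNA went from 1.69 and 1.39 TPM to 32.7 and 40.6 TPM (3.88 ± 0.60, log2, SE). Its footprints rose by 3.04 ± 0.28, from 0.386 and 0.345 TPM to 13.8 and 7.48 TPM. This was 1 of 7 members by RNA-seq, where 18.6% of genes rose and 24.7% fell, and 1 of 4 by footprint, where 21.3% rose and 16.2% fell. By footprint Tnnt1 met the filter through P42 alone and could only rise. Tnni3 RNA fell by 1.03 ± 0.28, from 4.99 and 3.59 TPM to 1.57 and 1.55 TPM, a call lost without E15.5 retina replicate 1 (−0.84). The RNA-seq counts were then 2 higher and 0 lower, with Tnnc1 (1.05) added, and 2 higher and 1 lower without the 2 libraries that stood apart, with Acta1 (1.23) added. Cardiomyocyte markers summed to 26.0 and 21.9 TPM and skeletal muscle markers to 38.7 and 39.8 TPM in P42 retina RNA, with Myog and 4 others at 0 in replicate 1 and Myog and Myf5 at 0 in replicate 2. At E15.5 the sums were 37.8 and 15.8 TPM and 20.8 and 16.2 TPM. Of 5 skeletal muscle markers tested, 3 were called higher at P42 and 0 lower, with a median of 1.28 against −0.23 over all genes; their part in the rise of Tnnt1 was not tested.

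Partners of the thin filament and sarcomere were mixed in heart. Of 36 genes listed, 33 were tested by RNA-seq, and 6 were called higher and 14 lower, with a median of −0.67 (log2) against −1.61 over all genes; by footprint 5 rose and 14 fell, with a median of −0.98 against −1.01. The 4 largest RNA changes were Myl7 (−7.03) and Myl4 (−7.03), light chains of atrial and embryonic myosin, Myh7 (−6.63), the slow myosin heavy chain, and Tcap (4.36), which caps titin. Of the 4 actins of other cells, all fell by RNA-seq: smooth muscle Acta2 (−3.01) and Actg2 (−2.58), and cytoplasmic Actg1 (−2.58) and Actb (−2.40). None of these 4 calls held under all scalings, and by footprint 3 fell and Actg2 was at −0.03. Of 19 cardiac and muscle transcription factors, 17 fell by RNA-seq (median −2.38 against −1.61 over all genes) and 16 of 18 by footprint (median −1.9 against −1.01), beside the 74.6% and 50.6% of all genes that fell. The largest RNA falls were Tbx20 (−4.02), Hand1 (−3.83), Myocd (−3.15) and Gata6 (−3.13). Srf, which encodes the factor of the CArG box found in both actin promoters, fell by 2.82; it is named for that box, not for its rank. Of 16 genes tested for folding of actin and myosin, 13 fell by RNA-seq (median −1.78) and 14 by footprint (median −1.73). With 74.6% of all genes falling by RNA-seq, that count lies near the background. The falls were led by the chaperone Hsp90aa1 (−3.71) and the chaperonin subunits Cct3 (−2.34), Cct5 (−2.16) and Cct8 (−2.12).

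Marker lists of single cell types in heart are read against the same background, 74.6% of genes falling by RNA-seq with a median of −1.61. Of 14 cardiomyocyte markers, 1 rose and 6 fell by RNA-seq, a smaller share, with a median of −0.75, and their sum went from 25686 and 24248 TPM to 17697 and 17066 TPM. Of the 8 smooth muscle markers, 4 fell, also a smaller share, with a median of −1.78: Cnn1 (−6.17) most, then Acta2, Tagln (−2.63) and Actg2, and their sum went from 2280 and 2139 TPM to 795 and 701 TPM. Blood cell markers also fell, 5 of 5 tested by RNA-seq and of 6 listed, with a median of −2.67. Hbb-bt, a globin gene of red blood cells, was among them (−3.56). Of 7 skeletal muscle markers tested, of 20 listed, 5 fell, near the background, with a median of −2.03, among them Casq1 (−2.98), Mylpf (−2.73), Myl1 (−2.39) and Mybpc1 (−2.03), while Ckm, shared with heart, stood at 0.17. At P42 the skeletal regulators Myf5 and Myf6 were at 0 in both heart RNA-seq libraries. The fast skeletal members Tnni2, Tnnt3 and Tnnc2 fell with these markers, whose part in their falls was not tested.

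The genes most like each member were taken by Pearson correlation of log2(TPM + 1) over the 24 RNA-seq libraries, among 17171 genes. These values are descriptions, since the libraries share tissues, stages and tables. For Tnni3 they were Tnnt2 (r = 0.978), Myh6 (0.976) and Tecrl (0.971), and for Tnnt2 Myh6 (0.979), Tnni3 and Hspb7 (0.975). For Tnnc1 they were Casq2 (0.972), Popdc2 (0.962) and Actn2 (0.951), and for Actc1 Ckm (0.961), Jph2 (0.960) and Tnnt2 (0.952). In the 24 Ribo-seq libraries each of these pairs stood between 0.897 and 0.993. Acta1 was less close to any gene, with Actn2 (0.856), Klhl41 (0.836) and Msc (0.830). Tnni1 was nearest to Thbs4 (0.897), Prss16 (0.896) and Myl4 (0.887), of which Myl4 stood at 0.939 and Prss16 at 0.616 by footprint. Tnnt1 was nearest to Pygm (0.869), Hspb3 (0.860) and Srpk3 (0.858). The fast skeletal genes were nearest to one another and to skeletal muscle genes: Tnni2 to Myl1 (0.922), Tnnt3 (0.884) and Myoz1 (0.883), Tnnt3 to Tnnc2 (0.910), Myog (0.900) and Tnni2, and Tnnc2 to Tnnt3, Myog (0.902) and Mylpf (0.886). These 3 genes take part of their likeness from E15.5 liver RNA-seq replicate 2, where they stood at 27.8, 30.3 and 23.7 TPM against 1.01, 0.286 and 1.23 TPM in replicate 1.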

How the data were processed

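The values are TPM of exon reads, deposited by the authors as 4 tables of 12 libraries, 1 for each stage and assay. Per the submitters' processing notes, CASAVA 1.8.2, cutadapt 1.8.1, TopHat2 2.0.14 on GRCm38.p6, Subread and featureCounts 1.6.2 were used; per the labels' protocols, tissue was lysed with cycloheximide, ribosomal RNA was depleted with Ribo-Zero, footprint libraries were made with ARTseq and RNA libraries with a poly(A) kit. Annotation release, strand setting and treatment of multi-mapping reads were not given in the sources used here. TPM keeps no depth, so no counting error can be given.

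Values were analysed as log2(TPM + 1) with limma 3.58.1 in R 4.3.3, with a variance trend and a mean for each tissue and stage, fitted over all genes that reached 1 TPM in at least 2 libraries of the assay. Stage tests also needed a mean of 1 TPM over both stages of the tissue, which 1 stage alone could supply. Ratio tests needed an RNA-seq mean of 5 TPM at each stage. P-values were adjusted by Benjamini-Hochberg over all genes tested. The fit was tested on simulated data. Of 200 genes given a log2 change of 1.5 in heart, 93.5% were recovered by RNA-seq (13250 genes tested) and 93.5% by footprint (11917 genes). For the ratio, 73.6% of 193 were (5602 genes). The simulation had no shift shared by all genes between stages, unlike the heart data. Its changed genes were drawn from well expressed ones, so these rates need not hold for the members. P-values set a difference against a replicate spread pooled over all tissues and stages of the assay, or of both assays for the ratio. That spread is also drawn toward the spread of other genes of like level. It is not the spread of the compared libraries alone. Alternatives were other pseudocounts, scalings, filters, variance models, a replicate block, each tissue alone, each library left out, and, added after seeing the data, 2 libraries left out of every fit.

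The members and lists were chosen with earlier results of these data known. All members are named; from each list up to 4 members called in heart by RNA-seq with the largest change, and for each member the 3 genes of highest correlation. Markers are named where a list's state is given. Python 3.11.15, numpy 2.4.6, pandas 2.3.3, scipy 1.17.1 and matplotlib 3.10.9 were used.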

Additional observations from a re-analysis of the deposited data

Results flagged for a closer look

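By the interaction of tissue and stage in limma, the stage change differed between heart and lung for 2 of the 10 genes by RNA-seq. Of all genes, 31.9% were so called. By footprint it differed for 6 of the 10, where 39.7% of all genes were called. The footprint calls use the E15.5 lung pair that differed least. For Tnni1 the difference, heart minus lung on the log2(TPM + 1) scale, was −5.94 by RNA-seq and −5.96 by footprint, a larger fall in heart in both assays. Lung Tnni1 RNA went from 21.2 to 0.020 TPM and its footprints from 18.2 to 0.066 TPM. Heart started at 1425 and 1362 TPM, so lung had no room on this scale for a fall as large. For Acta1 the heart minus lung difference was 3.90 by RNA-seq (adjusted p = 0.037) and 1.51 by footprint (adjusted p = 0.0030), a larger fall in lung by footprint. By RNA-seq lung fell and the heart difference of 0.80 was not called. By footprint the heart minus lung difference was −2.39 for Tnni2, −2.77 for Tnnt1 and −1.94 for Tnnt3, each a larger fall in heart. Lung footprints of these genes started at 2.14, 6.08 and 1.78 TPM, against 12.2, 115 and 5.88 TPM in heart. The low start limits the fall that lung could show. The difference was −1.07 for Tnnc2 by footprint (adjusted p = 0.047), a call that did not hold under all scalings tried.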

How the results depend on the processing

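Counts of members called in heart by RNA-seq moved with the scale: in place of 1 higher and 5 lower, median-of-ratios scaling gave 4 and 2, centring on the median gene 2 and 2, and a filter of 5 TPM left 3 lower. By footprint, in place of 0 higher and 8 lower, median-of-ratios scaling gave 1 (Tnni3) and 5, and 5 were lower with mitochondrially encoded genes left out and with centring. For the ratio in heart, in place of 0 lower, median-of-ratios scaling and the tissue alone each gave 5 and leaving 2 libraries out gave 1. RNA directions in heart reversed for Tnnt2 (1.5 with median-of-ratios scaling, 0.43 without mitochondrial genes, 1.09 centred), Tnnc1 (1.79, 0.72 and 1.38) and Actc1 (0.90 with median-of-ratios scaling, 0.49 centred). The Tnni3 footprint change was −0.16 without E15.5 heart replicate 2 and 0.62 without replicate 1, and the Actc1 ratio change 0.50 with listed genes at an equal sum. The causes were not tested.

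In the other 5 tissues together, members called higher by RNA-seq numbered 5 and, with a 5 TPM filter, 3; those called lower numbered 23 and, centred, 15. Lower ratios numbered 0, but 3 with median-of-ratios scaling or centring, 2 with a pseudocount of 4, without mitochondrial genes, at an equal sum or with no filter, and 1 with the tissue alone. Differences between heart and lung by RNA-seq numbered 2, but 4 with median-of-ratios scaling or without mitochondrial genes, 5 with 2 libraries left out, and 1 at an equal sum, with no filter or with no variance trend; by footprint they numbered 6, and 3 with a pseudocount of 4.

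Leaving out each library in turn gave 4 to 5 lower in heart by RNA-seq, 6 to 8 by footprint, 5 to 6 higher and 17 to 25 lower in the other tissues by RNA-seq, 2 to 4 higher and 19 to 21 lower by footprint, 0 to 3 lower ratios there, and 1 to 3 (RNA-seq) and 5 to 6 (footprint) differences between heart and lung. Whether replicate numbers pair the samples could not be settled. Across assays, replicate differences correlated between −0.28 and 0.42 (median 0.07), above 0.1 in 6 of 12 pairs, with 0.29 in E15.5 heart and 0.18 in P42 heart. Across stages they correlated between −0.49 and 0.30 (median 0.0002), above 0.1 in 4 of 12. The main fits used no pairing. With the replicate number as a block, the lower ratios in the other tissues numbered 1, with Tnni3 in lung (adjusted p = 0.046), and differences by footprint 5, without Tnnc2 (adjusted p = 0.054); it changed no other of the 127 member calls compared. Read depth is unknown and its limit could not be set.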
